A study of Mus musculus with 12 samples.

Results

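The question here was whether the microRNAs of mouse skin still change when a moderate dose of ultraviolet B (UVB) light, the band behind sunburn, is raised further. Skin libraries of the 180 mJ/cm2 dose (U180) were set against those of the 90 mJ/cm2 dose (U90), which makes 6 of the 12 libraries of the series. The other 6 are unirradiated skin (control) and skin given 360 mJ/cm2 (U360). Compared were all mature arms that reached 1 CPM in 3 or more of the 12 libraries, which were 590 of the 1519 arms listed. CPM is the number of reads of an arm per 1e+06 microRNA reads of its library. Every mouse was C57BL/6, a common inbred strain, aged 6 to 8 weeks, with no gene altered. The lamp was an SS-03B phototherapy instrument and the control dose was 0 mJ/cm2. Each dose had 3 libraries. Whether the libraries of a dose stand for separate animals is not said in the labels, and the p-values then cover the spread among these libraries alone, which may be technical. Nor do the labels give the time from irradiation to sampling or the sex of the mice.

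A microRNA is a short RNA cut from a hairpin. Either strand of the hairpin can be kept, giving a 5p and a 3p arm, and the arm is loaded into an Argonaute protein and represses mRNAs that pair with its bases 2 to 8, the seed. Skin holds several sources of microRNAs: keratinocytes make miR-203, miR-205 and the miR-200 family, muscle below the dermis makes miR-1 and miR-133, fibroblasts and smooth muscle make miR-143, miR-145 and miR-199, and white cells bring miR-223 and miR-142. UVB damages DNA, activates p53, which induces miR-34, and causes inflammation, in which miR-21 and miR-146 are known to be induced. A dose plateau means that the response to a lower dose is already complete, and it cannot be read from a test that finds no difference. Each arm was therefore placed in 1 of 3 classes. An arm differed if limma's adjusted p for U180 against U90 was under 0.05. It was called equal if a pair of one-sided tests from the same fit placed the difference inside a 2-fold bound on either side (1 log2 unit, adjusted p under 0.05), and otherwise it was undecided.

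The U180 libraries held 3465518, 4769554 and 5060781 microRNA reads and the U90 libraries 3383485, 4641395 and 4871528, so a single read was worth 0.198 to 0.296 CPM. Skin markers were present in all 12 libraries, with miR-203-3p at 8220 CPM or more and miR-205-5p at 1520 CPM or more. Muscle was sampled with the skin: miR-1a-3p took 7.79% of the reads of U180 replicate 3 and 14.5% to 21.4% in the other 11 libraries. The liver arm miR-122-5p stayed at 13.3 CPM or less, while the neural arm miR-124-3p ranged from 2.08 to 139 CPM. A further neural arm, miR-9-5p, was present in all 12 libraries, at 80.6 to 266 CPM. Libraries of the 2 doses were partly mixed. On the axis of greatest variance over all libraries, which carried 50.2% of it, the U180 libraries lay at 4.52, 0.61 and 2.69 and the U90 libraries at -3.52, -0.91 and 7.31. Within a dose, U90 replicates 1 and 2 were nearest to each other, and U180 replicate 3 was nearest to U180 replicate 2. Across the doses, U180 replicate 1 was the nearest library to U90 replicate 3 and the reverse (Pearson r = 0.99 over arms, a description only), and the nearest library of U180 replicate 2 was U90 replicate 2. Most counts of equal arms are therefore also given with both U180 replicate 1 and U90 replicate 3 left out, here called the 10-library fit. The spread within a dose was alike in both groups, with a median SD of 0.238 log2 units in U180 and 0.240 in U90 libraries among arms of 10 CPM or more.

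The sequences below are those of the arms on which the comparison turns, from RefSeq (mouse build GRCm38.p6), with the seed in capitals. First come 3 of the 10 arms with the smallest equality margins among those of 100 CPM or more.
miR-186-5p: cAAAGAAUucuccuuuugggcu
miR-125b-2-3p: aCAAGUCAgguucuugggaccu
miR-30a-5p: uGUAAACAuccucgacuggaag
Next come arms called at U360 against control whose U180 and U90 levels were called equal.
miR-21a-5p: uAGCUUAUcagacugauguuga
miR-34b-5p: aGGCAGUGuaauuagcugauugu
miR-200a-3p: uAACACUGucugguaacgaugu
The let-7 arms share a seed, and all lay slightly to the same side.
let-7f-5p: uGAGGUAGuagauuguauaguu
let-7g-5p: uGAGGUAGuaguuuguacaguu
let-7i-5p: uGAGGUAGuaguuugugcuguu
The last set holds undecided arms, some with an equal relative of the same seed (miR-429-3p, miR-204-5p).
miR-203-3p: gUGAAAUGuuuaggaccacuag
miR-200b-3p: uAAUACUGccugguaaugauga
miR-200c-3p: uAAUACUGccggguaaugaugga
miR-429-3p: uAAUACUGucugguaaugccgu
miR-223-3p: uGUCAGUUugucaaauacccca
miR-196a-5p: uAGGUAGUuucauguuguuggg
miR-196b-5p: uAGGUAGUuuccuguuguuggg
miR-211-5p: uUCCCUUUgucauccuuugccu
miR-204-5p: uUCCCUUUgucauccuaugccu

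No arm differed between the doses (0 of 590, 0%), and the smallest adjusted p of limma was 0.96. At an unadjusted p under 0.05 there were 19 arms (3.22%), 13 higher and 6 lower at U180. Other tools run on the recovered reads called none after adjustment either, with 21 arms under an unadjusted 0.05 by edgeR, 16 by DESeq2 and 20 by limma-voom. In the same fit the outer doses had many calls: 235 of 590 arms (39.8%) passed for U360 against control. The U180 and U90 libraries had no overlap for 54 arms (9.15%), 27 with all U180 libraries above (4.58%) and 27 with all below (4.58%).

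Most arms of fair abundance were called equal. Of the 332 arms with a mean of at least 10 CPM over the 6 libraries, 300 (90.4%) were called equal within 2-fold and 32 were undecided. Over all 590 arms the counts were 474 (80.3%) and 116. Equality was called for 62 of the 65 arms of 1000 CPM or more (95.4%), 102 of 109 between 100 and 1000 CPM (93.6%) and 136 of 158 between 10 and 100 CPM (86.1%). The median difference over the 332 arms was 0.05 log2 units, and the middle 50% of differences lay between -0.14 and 0.22. Of the 300, 211 (63.6% of the 332) were equal in each of the 12 fits that left out a library, and all 211 were equal by limma-voom and by DESeq2 as well. The count among the 332 was 275 by limma-voom, 298 by DESeq2 and 204 with both U180 replicate 1 and U90 replicate 3 left out. Just inside were miR-666-5p, miR-204-5p and miR-181d-5p (adjusted equality p of limma 0.047, 0.048 and 0.050), and just outside were miR-338-5p, miR-210-3p and miR-543-3p (0.052, 0.053 and 0.060). Of these 6, miR-666-5p, miR-338-5p and miR-543-3p were chosen after their values were seen.

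**Figure D1:**
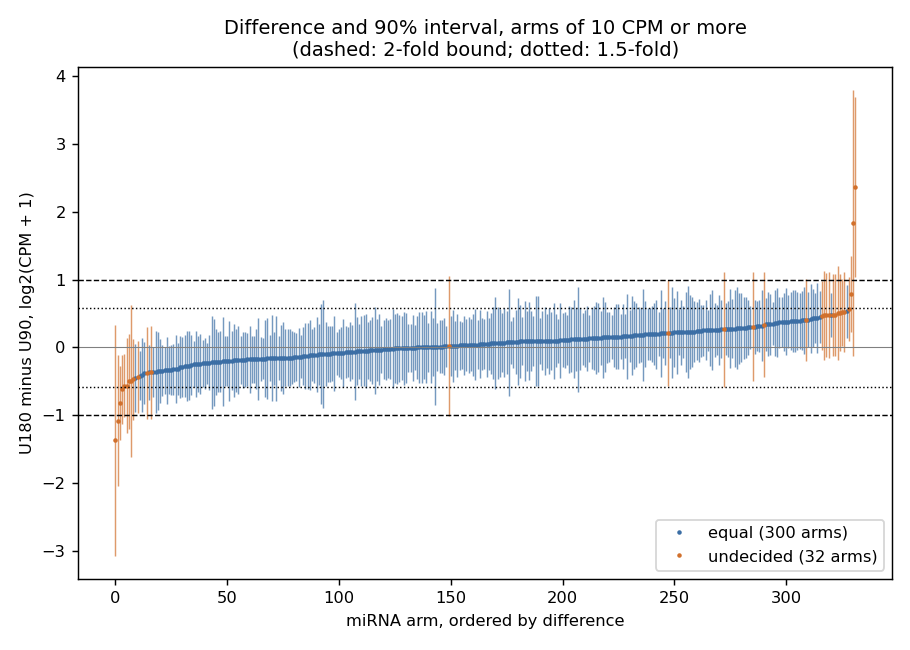
Difference between U180 and U90 libraries on the log2(CPM + 1) scale (y axis) for the 332 arms of 10 CPM or more, ordered by difference (x axis). Dots are differences of means of 3 libraries, bars are 90% intervals, and dashed and dotted lines mark the 2-fold and 1.5-fold bounds. The 300 blue arms were called equal within 2-fold and the 32 orange arms were undecided.

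How near to equal the doses were can be read from the margin, the larger end of the 90% interval without its sign, which is the smallest bound that an arm's interval fits in. For the 332 arms it had a median of 0.64 log2 units (1.56-fold), with the middle 50% between 0.53 and 0.79. It ran from 0.32 (1.24-fold) for miR-186-5p to 3.79 (13.8-fold) for miR-196a-5p. A bound of 1.5-fold gave no calls in this fit. After adjustment no arm was equal within it (0 of 590, smallest adjusted equality p of limma 0.19, against 18 arms by DESeq2), although 133 of the 332 intervals (40.1%) lay inside it before adjustment. The adjusted count among the 332 was 0 at 1.6-fold, 92 at 1.7-fold, 228 at 1.8-fold, 281 at 1.9-fold, 325 at 2.5-fold and 327 at 3-fold. Of the bounds tried in this fit, 1.7-fold was the smallest at which any arm was called equal.

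**Figure D2:**
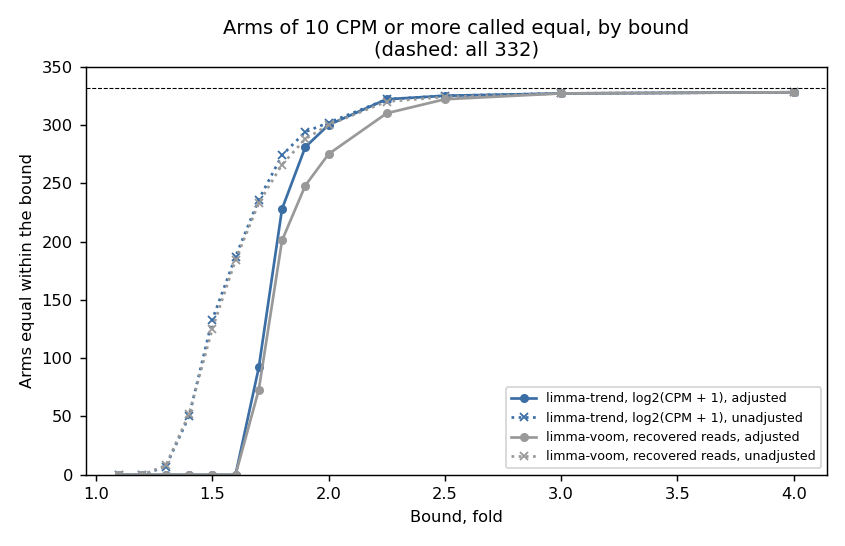
Number of the 332 arms of 10 CPM or more called equal (y axis) against the bound in fold (x axis), by limma-trend on log2(CPM + 1) and by limma-voom on recovered reads. Solid lines are adjusted calls, dotted lines count 90% intervals inside the bound. Adjusted calls by limma-trend begin between 1.6-fold and 1.7-fold, reach 300 at 2-fold and then level off.

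**Figure D3:**
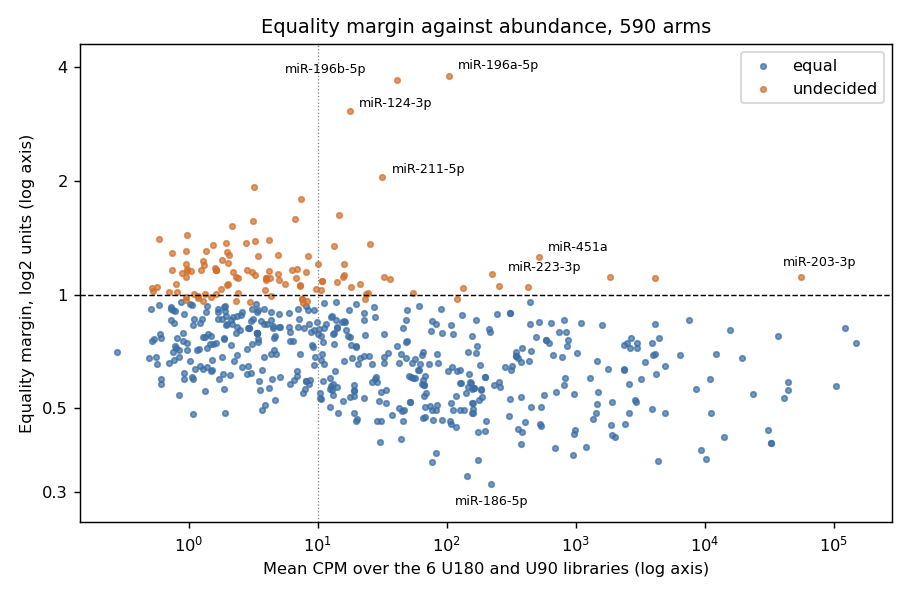
Equality margin in log2 units (y axis, log scale) against mean CPM over the 6 libraries (x axis, log scale) for all 590 arms. The dashed line is the 2-fold bound and the dotted line 10 CPM. All blue arms (equal) lie below the bound, the miR-196 arms, miR-124-3p and miR-211-5p lie far above it, and miR-203-3p is the most abundant undecided arm.

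Among arms of 100 CPM or more, the 10 smallest margins were between 0.32 and 0.40 log2 units. miR-186-5p had 214, 226 and 230.2 CPM in U180 libraries, against 226, 228 and 209.8 CPM in U90 libraries. Its difference was 0.02 log2 units (90% interval -0.29 to 0.32). miR-125b-2-3p, the passenger arm of a miR-125b hairpin, had 146, 129 and 156 CPM in U180 libraries, against 138, 151 and 142 CPM in U90 libraries. In both arms the 6 libraries lay within a narrow band and the doses overlapped. The others were miR-23b-3p, miR-99b-3p, miR-30a-5p, miR-22-3p, miR-30d-5p, miR-1839-5p, miR-532-5p and miR-361-3p, and all 10 were equal in every fit that left out a library. Of these, miR-30a-5p fell by 1.04 log2 units at U360 against control (limma adjusted p = 0.00099). Its U180 minus U90 difference was -0.01 log2 units (90% interval -0.37 to 0.35). Several of the most abundant arms were also called equal in all of those fits. miR-148a-3p, which had 136716, 83050.3 and 86183 CPM in U180 libraries, against 125673, 75411 and 115784 CPM in U90 libraries, differed by -0.06 log2 units (90% interval -0.57 to 0.46). miR-143-3p, made by smooth muscle and fibroblasts, differed by -0.25 log2 units (90% interval -0.59 to 0.09): it had 43443, 37444 and 41082 CPM in U180 libraries, against 45462, 47742 and 51718 CPM in U90 libraries, so all U180 libraries lay below all U90 libraries. miR-27b-3p differed by 0.09 log2 units (90% interval -0.39 to 0.56), and miR-199a-3p by 0.01 log2 units (90% interval -0.38 to 0.41). The values of miR-199a-3p are identical to those of miR-199b-3p, so these arms cannot be told apart in the table.

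To ask about UVB responders without using the values compared, arms were taken from U360 against control, which shares no library with U180 against U90 although the fit shares the spread. Of the 235 arms called there, 190 (80.9%) were equal within 2-fold between U180 and U90 and 45 undecided, against 284 of the 355 arms not called (80.0%). With at least 10 CPM the shares were 137 of 155 (88.4%) among responders and 163 of 177 (92.1%) among the rest. Equality in every fit that left out a library was reached by 86 of 155 responders (55.5%) and 125 of 177 others (70.6%). The 119 arms that rose at U360 (20.2%) had a median U180 minus U90 difference of 0.16 log2 units, with 85 above 0. For the 116 that fell (19.7%) it was -0.08, with 45 above 0. The median over all 590 arms was 0.05. Differences between these shares were not tested.

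In the lists of p53 and of wound and inflammation arms, the share called equal was not above the 90.4% over all arms of 10 CPM or more. miR-34b-5p had 212, 205 and 307 CPM in U180 libraries, against 199, 233 and 249 CPM in U90 libraries. The doses overlapped, the difference was 0.07 log2 units (90% interval -0.43 to 0.58), and the arm was equal in every fit that left out a library. In the fit with control, 151 arms were called at U90 (25.6%) and 181 at U180 (30.7%), and miR-34b-5p was among both. It had risen by 2.48, 2.55 and 2.64 log2 units over control at 90, 180 and 360 mJ/cm2 (limma adjusted p of 8.2e-05, 5.1e-05 and 9.2e-06), values that share the control libraries. Of the 5 tested miR-34 arms, 4 rose at U360 against control (against 20.2% of all 590 arms) and miR-34a-5p fell (by 0.92 log2 units, limma adjusted p = 0.0037). Between U180 and U90, 3 of the 5 were equal (60%), namely miR-34a-5p, miR-34b-5p and miR-34c-5p, and 1 in the 10-library fit. Both 3p arms of miR-34b and miR-34c were undecided. miR-34b-3p was equal without control replicate 3 and with the 6 compared libraries fitted alone. miR-34c-3p, a scarce passenger arm, had 15, 14.7 and 21.9 CPM in U180 libraries, against 9.46, 12.5 and 6.98 CPM in U90 libraries, so all U180 libraries lay above all U90 libraries. Its difference was 0.78 log2 units (90% interval 0.22 to 1.35), which did not pass as a difference (limma adjusted p = 0.96) and was undecided in every fit that left out a library. miR-34c-5p, from the same hairpin and far more abundant, had 613, 638 and 927 CPM in U180 libraries, against 494, 612 and 615 CPM in U90 libraries, and 0.32 log2 units (90% interval -0.20 to 0.84).

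**Figure D4:**
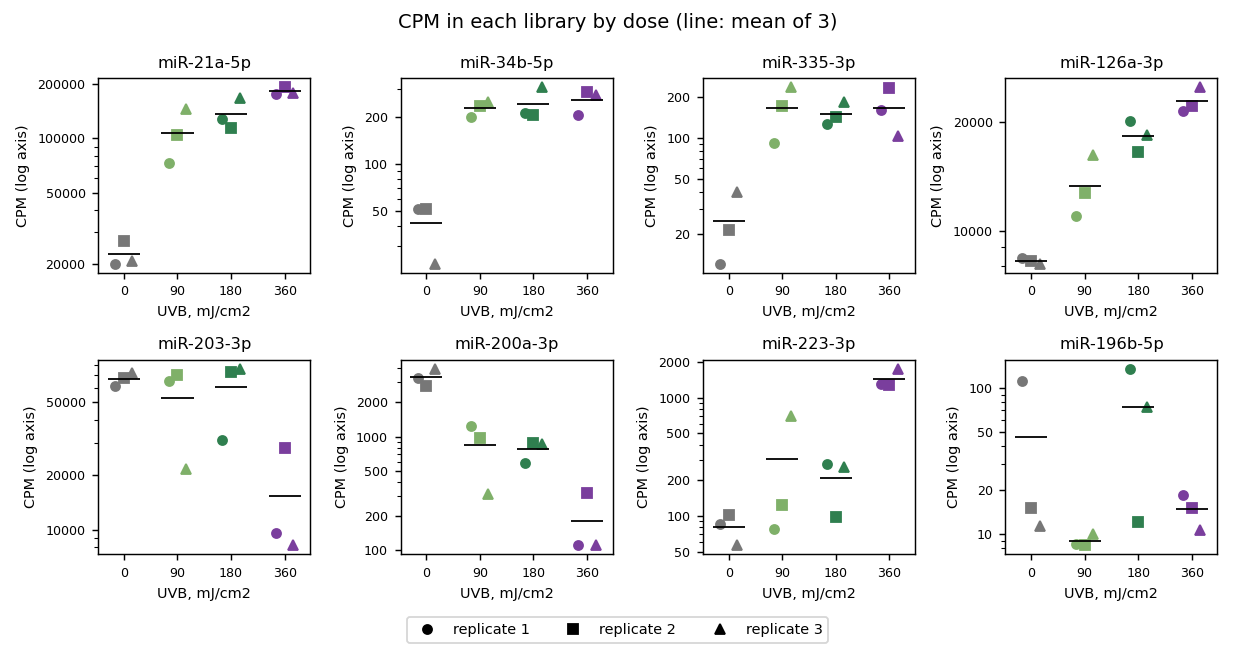
CPM (y axis, log scale) in each of the 12 libraries by dose (x axis, mJ/cm2) for 8 arms. Marker shapes are replicates 1, 2 and 3 and lines are means of 3. miR-34b-5p and miR-335-3p overlap among the 3 irradiated doses, miR-203-3p and miR-200a-3p lie low in U180 replicate 1 and U90 replicate 3, miR-223-3p lies high in U90 replicate 3, and miR-196b-5p is high in U180 replicates 1 and 3 and control replicate 1.

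Of 12 wound and inflammation arms of 10 CPM or more, 10 were equal (83.3%, against 90.4% over all such arms), and 6 in the 10-library fit. Of the 13 tested, 7 rose at U360 against control and none fell, against 20.2% and 19.7% of all 590 arms. miR-21a-5p, induced in wounds and the second most abundant arm here, had 128928, 113909 and 167646 CPM in U180 libraries, against 72954, 104232 and 145390 CPM in U90 libraries. The groups overlapped, with U90 replicate 1 lowest and U180 replicate 3 highest. The difference was 0.39 log2 units (90% interval -0.04 to 0.81), called equal (limma adjusted p for equality = 0.022), but undecided without U90 replicate 3 or without U180 replicate 2. Its rise over control was 2.21 log2 units at U90, 2.59 at U180 and 3.03 at U360, and U360 against U180 did not pass (0.44, limma adjusted p = 0.31). miR-132-3p, of a hairpin that CREB regulates, had 69.5, 63.3 and 62.4 CPM in U180 libraries, against 49.1, 51.7 and 80.1 CPM in U90 libraries; its difference of 0.14 log2 units (90% interval -0.37 to 0.65) was equal in every fit that left out a library. miR-132-5p was likewise level at -0.01 log2 units (90% interval -0.48 to 0.46), while miR-212-5p of the neighbouring hairpin was undecided at -0.47 log2 units (90% interval -1.07 to 0.13). miR-146a-5p and miR-146b-5p, which dampen NF-kB signalling, differed by -0.33 log2 units (90% interval -0.69 to 0.03) and by -0.26 log2 units (90% interval -0.70 to 0.18), and were equal in every such fit. So was miR-155-5p, an arm of activated white cells, at -0.19 log2 units (90% interval -0.63 to 0.24). miR-31-5p, known from injured epidermis, had 495, 516 and 738 CPM in U180 libraries, against 473, 582 and 319 CPM in U90 libraries. It was equal at 0.36 log2 units (90% interval -0.12 to 0.85), a call that held in 8 of the 12 fits that left out a library; at U360 it was 1.33 log2 units below U180 (limma adjusted p = 0.025). Its sister arm miR-31-3p was undecided.

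The imprinted miR-335 hairpin of the Mest gene gave a wide spread around equal means. miR-335-3p had 126, 141 and 183 CPM in U180 libraries, against 91.9, 171 and 235 CPM in U90 libraries, with U90 replicate 1 below and U90 replicate 3 above all U180 libraries. The difference was -0.06 log2 units (90% interval -0.78 to 0.65), called equal but in 8 of 12 fits that left out a library, while miR-335-5p (0.14 log2 units (90% interval -0.34 to 0.61)) was equal in all 12. Endothelial miR-126a-3p was the 1 arm of 1000 CPM or more with an unadjusted p under 0.05 for a difference. It had 20059.6, 16517 and 18393 CPM in U180 libraries, against 10976, 12699.6 and 16138 CPM in U90 libraries, and the groups did not overlap. The difference was 0.48 log2 units (90% interval 0.15 to 0.81), so the interval lay above 0 and still inside the 2-fold bound (limma adjusted p = 0.96 for a difference and 0.015 for equality). Without U90 replicate 3 the equality was lost (limma adjusted p = 0.054). The sister arm miR-126a-5p had 325, 345 and 414 CPM in U180 libraries, against 299.7, 398 and 378 CPM in U90 libraries and differed by 0.01 log2 units (90% interval -0.41 to 0.44).

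The 9 let-7 guide arms, a conserved family that represses growth genes, were all called equal, in the 12-library fit and in every fit that left out a library (against 90.4% and 63.6% of all arms of 10 CPM or more). All 9 differences were below 0, from -0.42 to -0.16 with a median of -0.28 log2 units, and they stayed below 0 with TMM factors (median -0.31 log2 units), with totals that omit miR-21a-5p and miR-1a-3p (-0.27 log2 units) and by DESeq2 (-0.34 log2 units). let-7f-5p had 34562, 28740.2 and 32262 CPM in U180 libraries, against 49321, 40636 and 38096 CPM in U90 libraries. Its 90% interval lay below 0, at -0.42 log2 units (90% interval -0.78 to -0.06) (limma adjusted p = 0.96 for a difference). let-7g-5p had 16791, 17376 and 17925 CPM in U180 libraries, against 23452, 22054 and 20302 CPM in U90 libraries, and -0.34 log2 units (90% interval -0.68 to 0.01). In 5 of the 9 arms all U180 libraries lay below all U90 libraries, against 4.58% of the 590 arms, but near-identical let-7 arms can share reads and are not independent. Summed over the list, the level was 114190, 101950 and 109810 CPM in U180 libraries, against 151800, 127250 and 128460 CPM in U90 libraries. With both U180 replicate 1 and U90 replicate 3 left out, 6 of the 9 arms were equal. The 11 miR-30 arms were all equal too, against 90.4% of all arms of that abundance, and 10 of them in every fit that left out a library (90.9%, against 63.6%). In the 10-library fit 9 were equal. They lay around a median of -0.07 log2 units.

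Many keratinocyte arms were undecided. Of the 9 epithelial arms of 10 CPM or more, 5 were equal (55.6%, against 90.4% over all such arms) and 4 undecided, and none of the 5 was equal in every fit that left out a library. Other tools moved the count to 2 of 9 by limma-voom and 7 of 9 by DESeq2, and a pseudocount of 0.1 to 1 of 9. miR-203-3p, which drives keratinocyte differentiation, had 30964, 73229 and 76229 CPM in U180 libraries, against 65259.6, 70261 and 21585 CPM in U90 libraries. U180 replicate 1 and U90 replicate 3 were low and the other 4 libraries alike. The difference was 0.27 log2 units (90% interval -0.58 to 1.11) and the arm was undecided in every fit that left out a library, though equal by DESeq2. miR-200b-3p had 2636, 5140.3 and 5374 CPM in U180 libraries, against 4777, 5215 and 1555 CPM in U90 libraries with the same libraries low, and 0.30 log2 units (90% interval -0.50 to 1.11). miR-200c-3p had 1460.4, 2386 and 2629 CPM in U180 libraries, against 1792, 2036 and 839 CPM in U90 libraries, and was undecided at 0.53 log2 units (90% interval -0.06 to 1.11), as was miR-200a-5p. Called equal were miR-205-5p (0.19 log2 units (90% interval -0.49 to 0.86)), miR-200a-3p (0.07 log2 units (90% interval -0.71 to 0.86)), miR-429-3p (-0.10 log2 units (90% interval -0.89 to 0.70)), miR-141-3p (0.07 log2 units (90% interval -0.62 to 0.75)) and miR-200b-5p (0.23 log2 units (90% interval -0.45 to 0.91)). miR-200a-3p, with 583, 884 and 852 CPM in U180 libraries, against 1236, 969.8 and 314 CPM in U90 libraries, was undecided whenever any of the 6 compared libraries was left out.

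The epithelial list followed single libraries. Its summed level was 41288, 90791 and 95490 CPM in U180 libraries, against 82025, 88915 and 28224 CPM in U90 libraries. Over its 12 tested arms the median difference was 0.22 log2 units, with 11 above 0, against 0.05 over all 590 arms. Without U180 replicate 1 the median was 0.46 with 12 above 0, without U90 replicate 3 it was -0.21 with 1 above 0, and without both libraries it was 0.04, with 4 of 9 arms equal. In such bulk samples fewer keratinocytes and less RNA per keratinocyte cannot be told apart. Further along the dose series the list was lower: 11 of its 12 arms fell at U360 against control, against 19.7% of all 590 arms. miR-203-3p was 2.10 log2 units lower at U360 than at U180 (limma adjusted p = 0.030), 1 of the 14 arms called lower (2.37%) among 24 calls of that comparison (4.07%). The cluster of miR-183, miR-96 and miR-182, also of epithelia and sensory cells, was low in the same libraries, at 5206, 7933 and 7139 CPM in U180 and 8119, 9124 and 3428 CPM in U90 libraries. Its 3 arms of 10 CPM or more were equal (against 90.4% over all such arms). Of these only miR-96-5p was equal in every fit that left out a library (33.3%, against 63.6%).

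The myeloid and leukocyte lists, summed, were highest in U90 replicate 3 of the 6 libraries, and the epithelial list was lowest there. miR-223-3p, the marker of neutrophils and monocytes, had 277, 97.9 and 258 CPM in U180 libraries, against 77.1, 124 and 702 CPM in U90 libraries. U90 replicate 3 held the highest level and U90 replicate 1 the lowest, so the U90 libraries enclosed all U180 libraries. The difference was 0.02 log2 units (90% interval -1.02 to 1.05). A difference so near 0 with an interval reaching 2-fold on both sides was undecided, in every fit that left out a library. At U360 the arm was 2.90 log2 units above U180 (limma adjusted p = 0.025), 1 of 10 arms called higher there (1.69%). The summed myeloid list was at 431, 177 and 391 CPM in U180 libraries, against 148, 209 and 890 CPM in U90 libraries. Its median difference was 0.16 log2 units, -0.03 without U180 replicate 1 and 0.74 without U90 replicate 3. Of the 4 myeloid arms of 10 CPM or more, 3 were equal (75%, against 90.4% over all such arms), 2 without U90 replicate 3 and 1 in the 10-library fit. The 3 included miR-223-5p (0.21 log2 units (90% interval -0.44 to 0.85)) and miR-511-3p (0.02 log2 units (90% interval -0.51 to 0.56)). The 4 leukocyte arms of that abundance were all equal (against 90.4% over all such arms), and 3 without U90 replicate 3 and in the 10-library fit. An example is miR-142a-5p at -0.08 log2 units (90% interval -0.58 to 0.42). The part that white-cell and keratinocyte content has in the undecided calls was not tested.

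In 4 undecided arms of 10 CPM or more the difference exceeded 1 log2 unit in size: miR-196a-5p, miR-196b-5p, miR-211-5p and miR-124-3p. miR-196b-5p, from a HOX gene cluster, had 135, 12.2 and 74.5 CPM in U180 libraries, against 8.57, 8.4 and 10.1 CPM in U90 libraries. U180 replicates 1 and 3 stood above the rest, and U180 replicate 2 was close to the U90 libraries although above them. The difference was 2.36 log2 units (90% interval 1.03 to 3.69), the smallest unadjusted p among arms of 10 CPM or more but not called (limma adjusted p = 0.96). miR-196a-5p had 230.3, 9.64 and 297 CPM in U180 libraries, against 9.46, 55.8 and 26.3 CPM in U90 libraries and differed by 1.83 log2 units (90% interval -0.12 to 3.79). The mature arms of miR-196a and miR-196b differ at 1 of 22 bases, so their reads can be confused, and control replicate 1, which was not irradiated, was also high at 165 CPM of miR-196a-5p and 111 CPM of miR-196b-5p. miR-211-5p, of pigment cells, had 7.21, 31.9 and 19.6 CPM in U180 libraries, against 69.5, 48.7 and 14 CPM in U90 libraries and differed by -1.08 log2 units (90% interval -2.05 to -0.11). Its relative miR-204-5p, which differs from it at 1 of 22 bases, had 15, 9.64 and 10.3 CPM in U180 libraries, against 17.4, 18.1 and 12.9 CPM in U90 libraries; it was called equal at -0.45 log2 units (90% interval -0.96 to 0.06), in 5 of 12 fits that left out a library. The neural arm miR-124-3p was listed beforehand as a marker of other tissue, but was taken up here after its values were seen. It had 17.6, 7.34 and 2.57 CPM in U180 libraries, against 49.4, 22.6 and 6.98 CPM in U90 libraries. Its difference was -1.37 log2 units (90% interval -3.06 to 0.33).

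Among muscle and red-cell arms, too, single libraries stood apart. miR-1a-3p, the most abundant arm, had 155540, 179084 and 77927 CPM in U180 libraries, against 157703, 165806 and 150875 CPM in U90 libraries. Only U180 replicate 3 was low. It was called equal at -0.29 log2 units (90% interval -0.74 to 0.17), a call lost without U180 replicate 1 or 2. Summed, the muscle list was at 164960, 187280 and 82100 CPM in U180 libraries, against 163610, 173610 and 157890 CPM in U90 libraries, and 4 of its 5 arms of 10 CPM or more were equal (80%, against 90.4% over all such arms), none in every fit that left out a library. The exception was miR-133b-3p, undecided at -0.37 log2 units (90% interval -1.05 to 0.31) and equal without U180 replicate 3 or control replicate 3. Red-cell miR-451a had 650.4, 345 and 258 CPM in U180 libraries, against 988, 445 and 424 CPM in U90 libraries and was undecided at -0.56 log2 units (90% interval -1.26 to 0.14), but equal without U90 replicate 1. In its list 5 of the 7 red-cell arms lay above 0 and 2 below, with a median of 0.09 log2 units. The values of miR-486a-3p and miR-486b-3p were identical, as were those of miR-486a-5p and miR-486b-5p. The counts of this list therefore hold the same values more than once. Of these 7, 4 were equal (57.1%, against 90.4%), and 0 in every fit that left out a library (against 63.6%). All 10 fibroblast and smooth muscle arms of 10 CPM or more were equal, against 90.4% over all such arms. In every fit that left out a library 8 of them were equal (80%, against 63.6%), with 8 equal without U90 replicate 3 and 7 in the 10-library fit. The 10 arms of miR-17/92 and its related clusters of that abundance were equal as well, against 90.4%. Of them, 5 were equal in every fit that left out a library (50%, against 63.6%), 7 without U180 replicate 1 and 9 in the 10-library fit. Both abundant miR-29 arms, miR-29a-3p and miR-29b-3p, which repress collagen mRNAs, were equal in each of these fits.

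**Figure D5:**
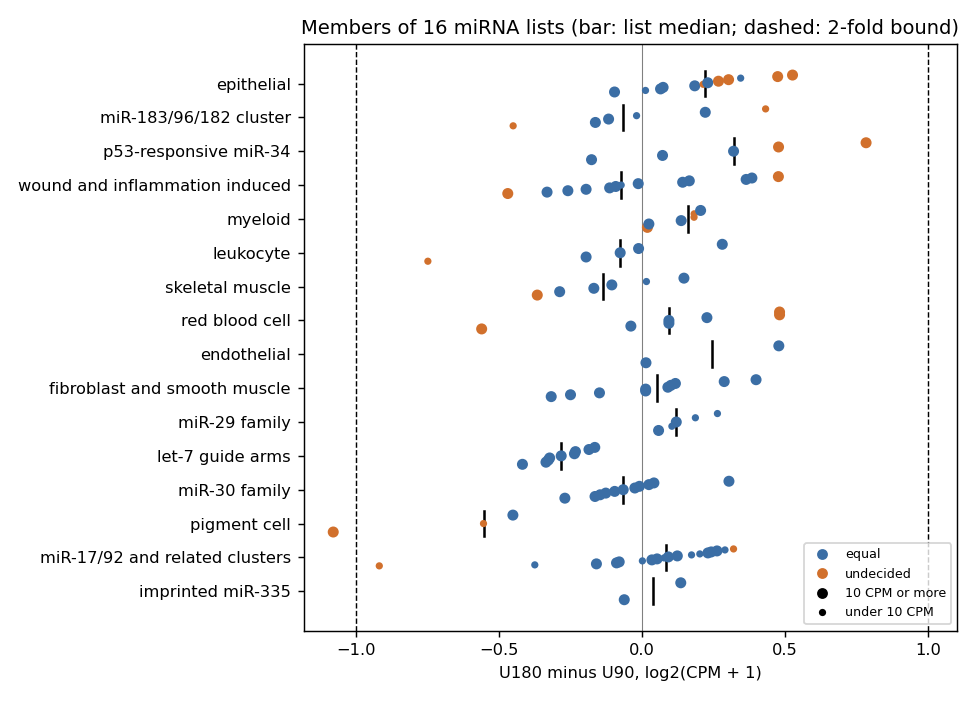
U180 minus U90 difference on the log2(CPM + 1) scale (x axis) for the tested members of 16 microRNA lists (y axis). Large dots are arms of 10 CPM or more and small dots scarcer arms, blue is equal, orange undecided, bars are list medians and dashed lines the 2-fold bound. The 9 let-7 arms all lie below 0 and are all equal, the epithelial arms lie mostly above 0 with undecided members, and the pigment cell list holds the member farthest below 0.

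An arm can be undecided through its spread or through the size of its difference. The 32 undecided arms had more of both, a description only, because the equality test sorts arms on both. Their standard errors had a median of 0.37 log2 units, against 0.25 for the 300 equal arms, and their absolute differences a median of 0.49, against 0.16. The standard errors came from the fit to all 12 libraries. Control libraries had the largest median SD at 10 CPM or more, 0.323 log2 units, against 0.238 in U180 and 0.240 in U90 libraries. With the 6 compared libraries fitted alone, 303 of the 332 arms were equal. The 90% interval included 0 in 24 of the 32. Of the 32, 12 were undecided in every fit that left out a library: miR-124-3p, miR-196a-5p, miR-196b-5p, miR-200b-3p, miR-203-3p, miR-211-5p, miR-223-3p, miR-301a-5p, miR-34c-3p, miR-3970, miR-6390 and miR-7015-5p. Of these, 10 were undecided by limma-voom and DESeq2 as well, the exceptions being miR-200b-3p and miR-203-3p, which DESeq2 called equal. miR-3970 had 23.4, 11.7 and 19.8 CPM in U180 libraries, against 41.7, 26.9 and 28.7 CPM in U90 libraries, without overlap, and differed by -0.82 log2 units (90% interval -1.36 to -0.28). miR-6390 and miR-7015-5p were chosen after their values were seen.

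Arms were also grouped by seed. RefSeq held the mature sequence of 501 of the 590 tested arms, 287 of them with 10 CPM or more. In these 287, 38 seeds were shared by 2 or more arms, 99 arms in all. All members were equal in 32 of the 38 families, such as the 9 let-7 arms and the 6 arms of the miR-15/16 seed. All were undecided in 2, miR-196a-5p with miR-196b-5p (seed AGGUAGU) and miR-34b-3p with miR-34c-3p (AUCACUA), and 4 were mixed. Of these arms, miR-34b-3p was equal without control replicate 3 and with the 6 compared libraries fitted alone. With 90.4% of arms of 10 CPM or more equal whatever their seed, the count of all-equal families is no result about seeds. In the AAUACUG family printed above, miR-429-3p was equal in the 12-library fit while miR-200b-3p and miR-200c-3p were undecided. This split depended on the tool: by DESeq2 miR-200b-3p was equal and miR-429-3p was not. miR-429-3p was also undecided by limma-voom and whenever any of the 6 compared libraries was left out. miR-200c-3p differs from miR-200b-3p at 2 of the 22 bases compared. Members of a family can share reads, so the families are no set of independent observations.

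For scarce arms the word equal carries less. Of the 258 tested arms under 10 CPM, 174 (67.4%) were called equal on the log2(CPM + 1) scale, on which the added 1 pulls small values together. Of those 174, limma-voom called 31 equal and DESeq2 33. No scarce arm is described as equal above. No scarce arm differed either, and an arm of 1 CPM rests on a handful of reads at this depth.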

How the data were processed

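Small RNA was extracted with Trizol from flash-frozen skin, turned into libraries by a NEBNext Multiplex small RNA kit and read on a NextSeq 500, per the labels' protocols. The authors deposited a table of CPM for 1519 mature arms and 12 libraries, with a total of 1e+06 in each. The genome build is mm9 per the submitters' processing notes; the microRNA annotation, like the aligner and the counting, is not given in the sources used here. Ligation favours some RNA ends, so levels are compared for an arm across libraries and not between arms. All values (100%) came out as whole reads within 0.01 reads, which gave back 3164422 to 8063815 reads per library. Reads carry no molecular identifiers. Identical values were listed for 24 tested arms in 11 sets, whose members cannot be told apart.

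Groups come from the sample titles. Differences are on the log2(CPM + 1) scale, with a pseudocount of 1, which understates changes of scarce arms. limma-trend (limma 3.58.1, R 4.3.3) was fitted to all 12 libraries with a mean per group, with two-sided p-values adjusted by Benjamini-Hochberg over the 590 arms (threshold 0.05). Equality was tested by 2 one-sided tests from that fit against bounds of 2-fold and 1.5-fold, adjusted in the same way; a 90% interval is the one these tests use, with 15.4 degrees of freedom, 7.45 of them from the prior. Equality is given separately for arms with at least 10 CPM over the 6 compared libraries. edgeR 4.0.16, DESeq2 1.42.0 and limma-voom were run on the recovered reads as alternatives. A count test was not the main one because the table holds CPM. With 3 libraries a group an exact permutation test cannot reach the threshold, so none was used.

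The comparison, the 16 lists and the tests were chosen with earlier results of these data known, and arms are described and not used as independent support. Named arms follow a rule that gave 81: the smallest unadjusted p in each direction, the smallest and largest equality margins among arms of at least 100 CPM, the most abundant arms, the largest changes at U360 against control, up to 3 of the most abundant arms per list, and a short list of skin, p53, myeloid and muscle arms. Undecided arms and members of lists outside this rule are named where a count is small; these were chosen after seeing their values. Only 2 tested arms passed the filter through a single group, U360. Sequences were matched by arm name.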

Additional observations from a re-analysis of the deposited data

How the results depend on the processing

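No alternative gave an arm that differed between U180 and U90 libraries. The count of equal arms of 10 CPM or more (300) was 251 to 304 when a library was left out and 204 without U180 replicate 1 and U90 replicate 3 together. The cause of the larger shifts below was not tested. Over all tested arms, 474 were equal within 2-fold: this became 304 with a pseudocount of 0.1, 306 by limma-voom, 262 without both of those libraries, 1399 of 1519 with no filter and 0 with a bound of 1.2-fold, and 353 to 492 when a library was left out. The 116 undecided arms became 221 and 286 with pseudocounts of 0.5 and 0.1, 36 with a filter of 10 CPM in at least 3 libraries (353 arms tested), 284 by limma-voom, 259 by DESeq2, 197 with no moderation of the spread and 328 without both libraries. With a library left out they were 98 to 237, and over 1.5 times the count in the fit without each of the 6 compared libraries (237 without U180 replicate 1, 199 without U90 replicate 3). Equality within 1.5-fold, which no arm reached, was called for 809 arms with no filter, 18 by DESeq2 and 1 with no moderation. Among arms called at U360, the 190 equal arms became 104 without both libraries, with 135 to 214 over the fits that left out a library. Moderation of the spread and the count at 10 CPM were examined as alternatives chosen after seeing the data.

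Of the 81 named arms, 60 were equal, 33 of these in every fit that left out a library, and 12 of the 21 undecided arms were undecided in every such fit. The labels do not say whether libraries of the same replicate number are paired, and the values here cannot decide it. Deviations of U180 and U90 libraries of the same number correlated at -0.249, 0.109 and -0.0791 across arms. With 3 libraries a dose these deviations sum to 0, which limits what the correlations can show. The read totals rose in the order of the replicate numbers in U90 and in U180, and fell in that order in control and in U360. With the replicate number as a block, 0 arms differed, 477 were equal (302 of 10 CPM or more), 113 were undecided and 188 of the U360 arms were equal, so no count moved by over 1.5 times. In these deviations no replicate of U180 correlated best with the U90 replicate of its own number. TMM factors gave 477 equal arms and totals without miR-21a-5p and miR-1a-3p 414, and no scaling moved the median difference by over 0.1 log2 units. At the median the 90% interval reached 0.38 log2 units to either side for arms of 1000 CPM or more and 0.58 for arms under 10 CPM.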
